A study of Mus musculus with 6 samples.

Results

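The genes described are 10 of the 14861 in the deposited table: the secreted or membrane-bound metalloproteases Adamts1, Adamts2, Adamts4, Adamts5, Mmp2, Mmp3 and Mmp14, and the tissue inhibitors of metalloproteases Timp1, Timp2 and Timp3. They were taken by gene symbol, all 10 were found, and they were selected on their levels and genotype differences in this same comparison, whose earlier results were in view. Their differences between genotypes are therefore given as a description, without a test. RNA came from the inguinal white fat, a subcutaneous fat pad of the groin, of AdIGF1RKO and Flox mice, with 3 libraries of each. AdIGF1RKO mice carry floxed Igf1r, the insulin-like growth factor 1 receptor gene, together with Cre recombinase driven by the adiponectin promoter (Adipoq-Cre), which is active in adipocytes. Flox mice, their littermates with floxed Igf1r, serve as controls, so the floxed allele is shared by both groups. Both groups were kept for 24 weeks on a normal chow that supplied 10% of calories as fat, and an overnight fast preceded dissection. Age and sex are not in the labels used here. The pad was sequenced whole, so cells in which Cre is not expressed contribute to every value, and in such bulk tissue fewer cells of a type and less RNA per cell cannot be told apart.

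As background, these enzymes cut the scaffold between cells, and the inhibitors block them by binding the catalytic zinc site. ADAMTS enzymes carry thrombospondin repeats that hold them to the matrix: Adamts1, Adamts4 and Adamts5 encode enzymes that cut proteoglycans such as versican and aggrecan, and Adamts2 encodes one that trims the amino end of fibrillar procollagens. Mmp14 encodes a membrane-bound collagenase that also activates the gelatinase encoded by Mmp2, with the Timp2 protein as a bridge between both, while Mmp3 encodes stromelysin, which cuts many matrix proteins and activates other enzymes of its family. The Timp3 protein stays bound to the matrix and is the family member that blocks ADAMTS4 and ADAMTS5. In fat, remodelling of the matrix accompanies growth of adipocytes and vessels, and much of it is the work of progenitor cells and fibroblasts around the adipocytes.

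The promoters of 7 of the 10 genes were found in the RefSeq set of build GRCm38.p6, each covering 250 bases before the transcription start and 50 after it. Adamts4, Adamts5 and Mmp2 were not matched. The windows were searched on both strands for TGANTCA (the AP-1 motif, a site of Fos and Jun proteins), TATAAA (the TATA box), GGGCGG (the GC box), TTCNNNGAA (a STAT site) and GTAAACA (a FoxO site). The 150 bases before the start are shown for Timp1, the inhibitor with the widest spread between libraries, for Mmp3, a member that varied little, and for Adamts1, the protease with the widest spread among Flox libraries. Capitals mark every match in the stretch.
Timp1 (chrX:20870016-20870165, plus strand): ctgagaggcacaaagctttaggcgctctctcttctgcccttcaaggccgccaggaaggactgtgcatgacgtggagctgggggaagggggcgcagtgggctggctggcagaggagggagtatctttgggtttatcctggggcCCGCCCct
Mmp3 (chr9:7445672-7445821, plus strand): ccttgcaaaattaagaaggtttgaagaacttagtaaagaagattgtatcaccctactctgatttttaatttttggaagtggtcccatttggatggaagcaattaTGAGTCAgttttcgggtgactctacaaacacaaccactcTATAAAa
Adamts1 (chr16:85803114-85803263, minus strand): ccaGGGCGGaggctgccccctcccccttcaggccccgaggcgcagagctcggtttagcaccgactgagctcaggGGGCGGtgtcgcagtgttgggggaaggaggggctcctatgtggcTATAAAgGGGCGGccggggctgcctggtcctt
The Mmp3 window was the only one of the 7 with the AP-1 letters, which 7.81% of the 32851 promoter windows of the set hold. It had no GC box, whereas the other 6 windows had 1 to 5, as did 35.7% of all windows at least once. The TATA box stood in the Mmp3 and Adamts1 windows and in 13.6% of all windows. The STAT letters (8.30% of all windows) and the FoxO letters (3.65%) were in none of the 7. No match overlapped another motif, and a match describes the letters only.

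Levels are given as scaled CPM, the usual counts-per-library unit after median-ratio scaling to a library of average size, and differences as log2 of AdIGF1RKO over Flox after adding 1 to each value. Each library held 60617147 to 70695527 reads, and a member had 106 to 40231 reads in a library. The libraries differed in markers of other cells. In AdIGF1RKO 3 and Flox 3, 4.86% and 13.4% of reads fell on skeletal muscle markers, whose share in the other 4 libraries was 0.0559% to 0.933%. Of 8 markers of lipid-laden macrophages, 7 were highest in AdIGF1RKO 2. The adiponectin gene Adipoq, a marker of adipocytes, was present in every library, with 3348 to 4214 scaled CPM in AdIGF1RKO fat and 3799 to 4927 in Flox fat. The targeted gene Igf1r had 6.11, 5.27 and 4.85 scaled CPM in AdIGF1RKO 1 to 3, against 6.44, 6.47 and 5.86 in Flox 1 to 3, and its groups overlapped.

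Adamts5 was higher in AdIGF1RKO fat than in Flox fat, Timp1 was higher mainly through a single library, and the other 8 genes had overlapping groups. Of the 10 genes 5 were above 0 on the log2 scale, where 44.8% of all 12993 tested genes were, and their median was 0.03, against -0.02 for all tested genes. The groups did not overlap for 2 of the 10, both higher in AdIGF1RKO, where 4.41% of all tested genes were higher without overlap, 3.86% were lower without overlap and 8.27% did not overlap in either direction. Across the whole table limma called 0% of genes at an adjusted p under 0.05, while 385 genes (2.96%) had an unadjusted p under 0.05. edgeR's quasi-likelihood test on the reads called 0%, and DESeq2 called 23 genes (0.177%), of which 1 was a member, Adamts5. Because this comparison chose the members, nothing is read from that count.

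**Figure D1:**
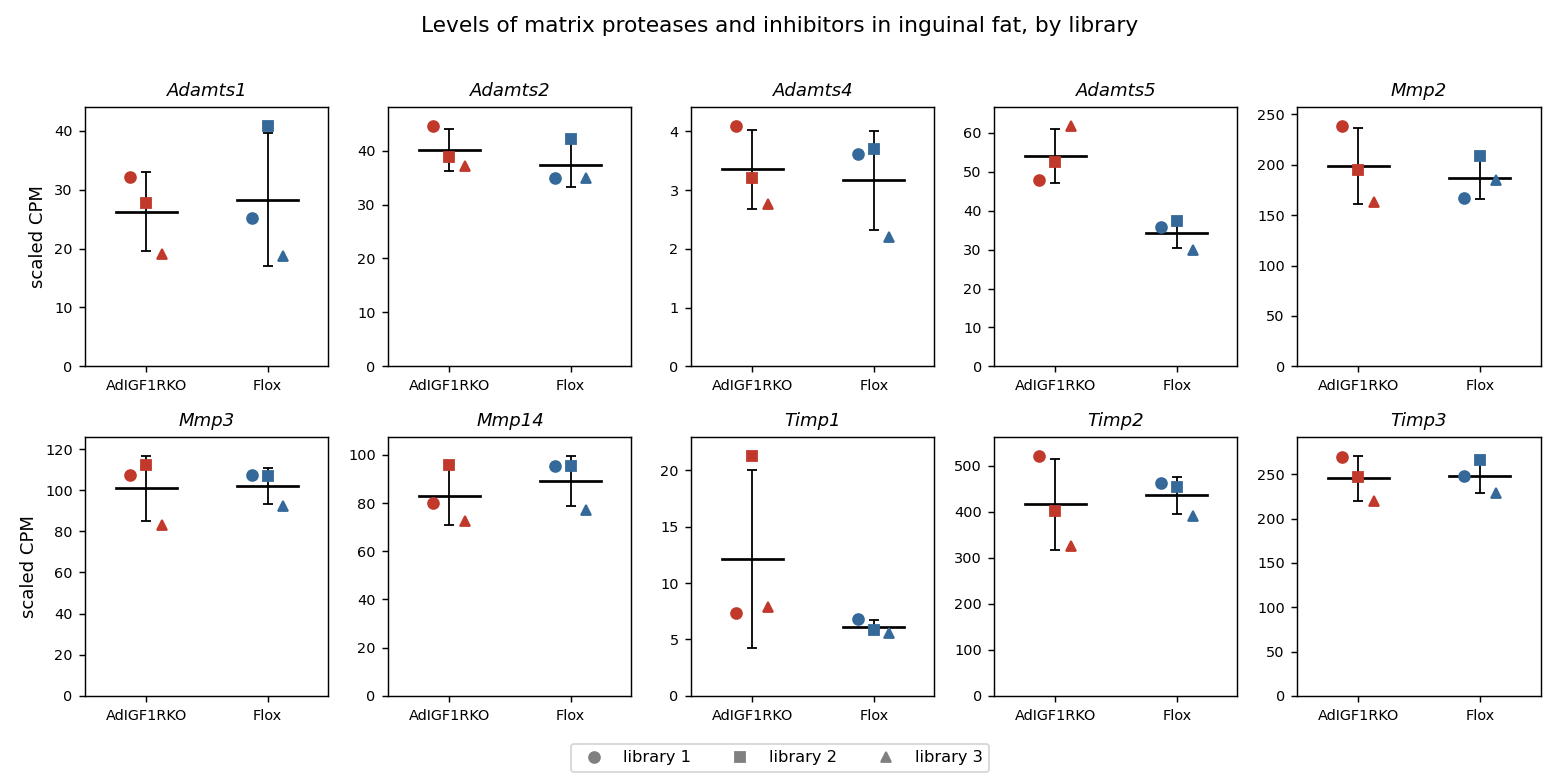
Scaled CPM of the 10 genes in every library, AdIGF1RKO at the left and Flox at the right of each panel; symbols mark libraries 1 to 3, horizontal bars the group means and error bars the SD (n = 3). The 3 AdIGF1RKO values of Adamts5 lie at 47.9 to 61.7, above the 29.9 to 37.4 of Flox fat, and Timp1 reaches 21.3 in AdIGF1RKO 2 only.

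Adamts5, the aggrecanase, had 47.9, 52.6 and 61.7 scaled CPM in AdIGF1RKO 1 to 3, against 35.8, 37.4 and 29.9 in Flox 1 to 3. Every AdIGF1RKO library lay above every Flox library, and the distance between the nearest values was larger than the SD of either group. Means were 54.1 ± 7.03 in AdIGF1RKO fat and 34.4 ± 3.97 in Flox fat (SD, n = 3 each), a ratio of 1.57 (log2 difference 0.64, standard error 0.13). The difference was positive under all 17 alternative ways of processing, from 0.44 without both muscle-rich libraries to 0.76 with libraries scaled to equal sums. An absolute difference larger than that of Adamts5 was found in 2.77% of tested genes. Because this comparison chose the members, nothing is read from that share, and the alternatives reprocess the same libraries. Among the AdIGF1RKO libraries its level was highest in AdIGF1RKO 3, where 8 other members and the summed progenitor and fibroblast markers were at their lowest of the group. Endothelial markers summed to 761 to 892 scaled CPM in AdIGF1RKO fat and 644 to 773 in Flox fat, with overlap. Of these 10 markers 6 were higher without overlap, where 4.41% of all tested genes were, none passed limma at an adjusted p under 0.05, and their part in the level of Adamts5 was not tested.

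A ratio of 2 genes within a library does not depend on how libraries are scaled. Adamts5 over Timp3, the gene of its matrix-bound inhibitor, was 0.177, 0.213 and 0.281 in AdIGF1RKO 1 to 3, against 0.144, 0.141 and 0.131 in Flox 1 to 3. The groups did not overlap, and the ratio varied more among AdIGF1RKO libraries than among Flox libraries. The same ratio for the other enzymes of this group did overlap. Adamts1 over Timp3 was 0.0867 to 0.119 in AdIGF1RKO fat and 0.0822 to 0.153 in Flox fat. Adamts4 over Timp3 was 0.0126 to 0.0151 in AdIGF1RKO fat and 0.00959 to 0.0146 in Flox fat. Set directly against these enzymes, Adamts5 did not separate the genotypes. Adamts5 over Adamts1 was 1.49 to 3.25 in AdIGF1RKO fat and 0.918 to 1.59 in Flox fat. Adamts5 over Adamts4 was 11.7 to 22.4 in AdIGF1RKO fat and 9.90 to 13.6 in Flox fat. Set against the summed level of 12 progenitor and fibroblast markers, a comparison added after the data had been seen, Adamts5 was 12.7, 14.1 and 17.5 per 1000 in AdIGF1RKO 1 to 3, against 9.04, 8.97 and 9.04 per 1000 in Flox 1 to 3. The summed markers themselves overlapped between genotypes, at 3520.2 to 3781 scaled CPM in AdIGF1RKO fat and 3305 to 4171 in Flox fat. Most of that sum came from Dpt, with means of 1970 in AdIGF1RKO fat and 1956 in Flox fat, and Ly6a (912 and 1025). The 3 Flox libraries were nearly alike in this proportion of Adamts5, and each AdIGF1RKO library stood above them. Timp1 was also without overlap, at 1.95, 5.71 and 2.24 per 1000 in AdIGF1RKO 1 to 3, against 1.73, 1.41 and 1.70 in Flox 1 to 3. The remaining members overlapped.

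**Figure D2:**
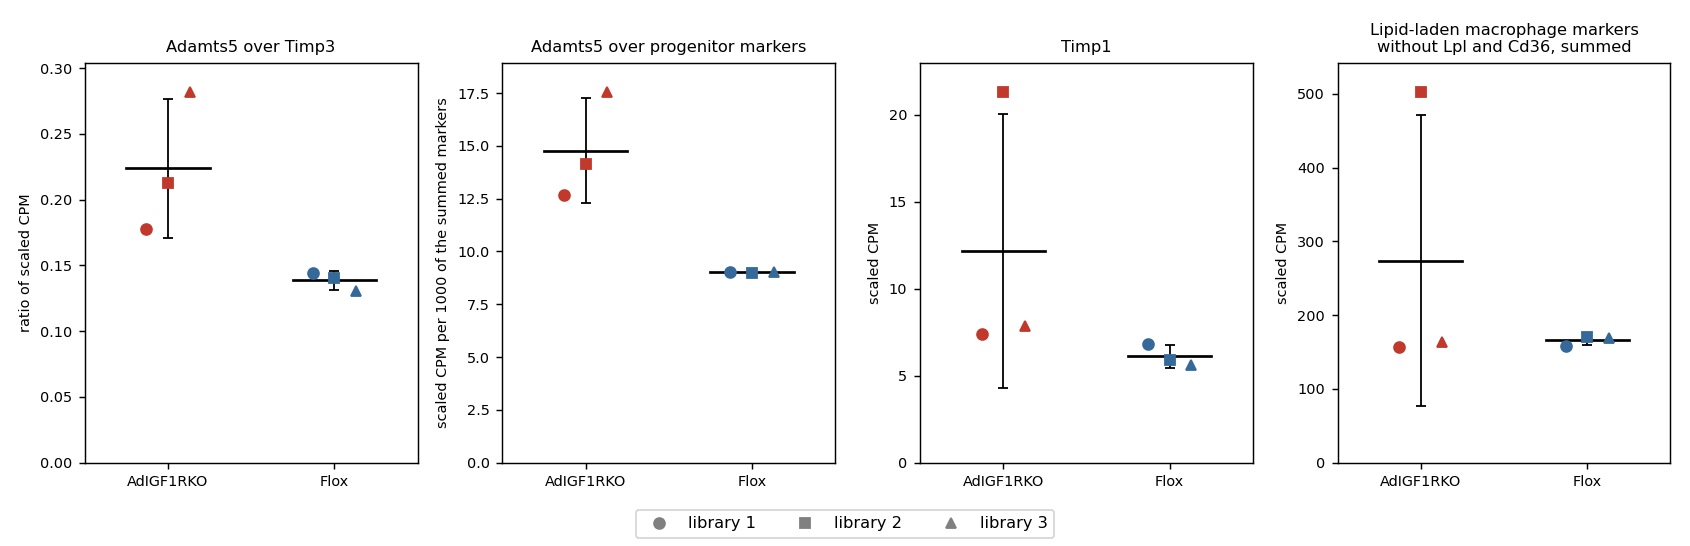
From the left: Adamts5 over Timp3 (ratio of scaled CPM), Adamts5 per 1000 scaled CPM of the summed progenitor and fibroblast markers, Timp1 in scaled CPM, and the summed scaled CPM of 6 markers of lipid-laden macrophages; AdIGF1RKO stands left of Flox, bars are means and error bars SD (n = 3). Both Adamts5 ratios are higher in all AdIGF1RKO libraries, whereas Timp1 and the macrophage markers stand out in AdIGF1RKO 2, at 21.3 and 502.

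Of the other 3 ADAMTS genes none separated the genotypes. Adamts1, whose product cuts versican and aggrecan, had 32.1, 27.7 and 19.0 scaled CPM in AdIGF1RKO 1 to 3, against 25.3, 40.8 and 18.8 in Flox 1 to 3. The highest and the lowest value both belonged to Flox libraries, and the log2 difference was -0.06 (standard error 0.31, the widest of the 10 after Timp1). Its sign turned with the libraries used: the log2 difference was -0.31 without Flox 3, 0.23 without Flox 2 and 0.14 without AdIGF1RKO 3, and it was 0.05 with libraries scaled to equal sums. Adamts4, the other aggrecanase, was the scarcest member, with 4.08, 3.21 and 2.76 in AdIGF1RKO 1 to 3 and 3.62, 3.69 and 2.20 in Flox 1 to 3. In both groups it was lowest in the library richest in muscle RNA, and its difference was 0.07 (standard error 0.21). Adamts2, the procollagen N-proteinase, had 44.5, 38.8 and 37.2 in AdIGF1RKO 1 to 3, against 34.9, 42.2 and 35.0 in Flox 1 to 3. Flox 2 lay within the AdIGF1RKO range, so the groups overlapped, and the difference was 0.10 (standard error 0.12).

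The 3 matrix metalloprotease genes were close to equal in both genotypes. Mmp2, the gelatinase, had 238, 195 and 163 scaled CPM in AdIGF1RKO 1 to 3, against 167, 208 and 185 in Flox 1 to 3. AdIGF1RKO libraries held both the highest and the lowest value, and the log2 difference was 0.08 (standard error 0.16). Mmp14, its membrane-bound activator, had 80.2, 95.7 and 72.6 in AdIGF1RKO 1 to 3, against 95.3, 95.1 and 77.3 in Flox 1 to 3. AdIGF1RKO 2 was as high as Flox 1 and Flox 2, and the difference was -0.11 (standard error 0.14). Mmp3, stromelysin, had 107, 112 and 82.9 in AdIGF1RKO 1 to 3, against 107, 107 and 92.2 in Flox 1 to 3. In each genotype the muscle-rich library was the lowest and the other values were nearly alike, and the difference was -0.03 (standard error 0.14). With the values as deposited, which moved the median log2 difference of all genes to -0.17, Mmp3 (-0.19) and Mmp14 (-0.27) were lower in all AdIGF1RKO libraries than in any Flox library, and so was Timp3 (-0.18). At that scaling 520 genes had an unadjusted limma p under 0.05, and only 59 of them were higher in AdIGF1RKO fat. The share of all genes lower without overlap was not counted there, so nothing is read from these separations.

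The proteins of Mmp14, Mmp2 and Timp2 act in a shared complex, so their ratios within a library were compared. Mmp2 over Timp2 was 0.457, 0.486 and 0.501 in AdIGF1RKO 1 to 3, against 0.360, 0.458 and 0.474 in Flox 1 to 3. Flox 2 and Flox 3 lay within the AdIGF1RKO range, so the groups overlapped. Mmp14 over Timp2 averaged 0.205 ± 0.0451 in AdIGF1RKO fat and 0.204 ± 0.00568 in Flox fat (SD, n = 3 each). The means were alike, while the AdIGF1RKO libraries were more spread.

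Among the inhibitors, Timp2 was the most abundant member, with 522, 401 and 326 scaled CPM in AdIGF1RKO 1 to 3, against 464, 455 and 390.1 in Flox 1 to 3. AdIGF1RKO 1 held the highest and AdIGF1RKO 3 the lowest value, and the log2 difference was -0.09 (standard error 0.18). Timp3 had 269.8, 247 and 219 in AdIGF1RKO 1 to 3, against 248, 266 and 229 in Flox 1 to 3. It varied least of the 10, by 1.23-fold between its lowest and highest library, and its difference was -0.02 (standard error 0.11). Timp3 shares 1733 exon bases with its host gene Syn3 on the opposite strand in the GENCODE M21 annotation, but Syn3 had only 1.03 to 1.95 scaled CPM. Whether counting used the strand is not given in the sources used here.

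Timp1, an inhibitor whose transcription is known to rise in inflamed and fibrotic tissue, had 7.37, 21.3 and 7.88 scaled CPM in AdIGF1RKO 1 to 3, against 6.84, 5.87 and 5.62 in Flox 1 to 3. All AdIGF1RKO values lay above all Flox values, but AdIGF1RKO 1 exceeded Flox 1 by less than the SD of the Flox group, and AdIGF1RKO 2 stood far above the rest. The means were 12.2 ± 7.89 in AdIGF1RKO fat and 6.11 ± 0.644 in Flox fat (SD, n = 3 each), and the log2 difference was 0.74 with an error of 0.38. Without AdIGF1RKO 2 the difference was 0.28, and with the values as deposited it was 0.59 with overlapping groups. AdIGF1RKO 2 was also the library rich in genes of lipid-laden macrophages. Trem2, a lipid receptor of these cells, had 6.04, 62.8 and 9.15 in AdIGF1RKO 1 to 3, against 7.42, 12.1 and 8.52 in Flox 1 to 3. Without Lpl and Cd36, which adipocytes also express, the other 6 markers summed to 157, 502 and 163 in AdIGF1RKO 1 to 3, against 158, 170.5 and 169 in Flox 1 to 3. All 6 were highest in AdIGF1RKO 2, as Timp1 was, and their part in the level of Timp1 was not tested. The 10 general macrophage markers, of which the complement genes C1qa, C1qb and C1qc are the most abundant, summed to 1678 in AdIGF1RKO 2, and Flox libraries spanned 1133 to 1797. Of these 10, 3 were highest in AdIGF1RKO 2, among them Cd68, of a lysosomal protein, with 84.1, 172 and 65.8 in AdIGF1RKO 1 to 3, against 92.9, 81.8 and 61.4 in Flox 1 to 3. The 5 of 6 neutrophil markers in the table summed to 55.1 in AdIGF1RKO 2, against 27.5 to 33.3 in the other libraries.

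**Figure D3:**
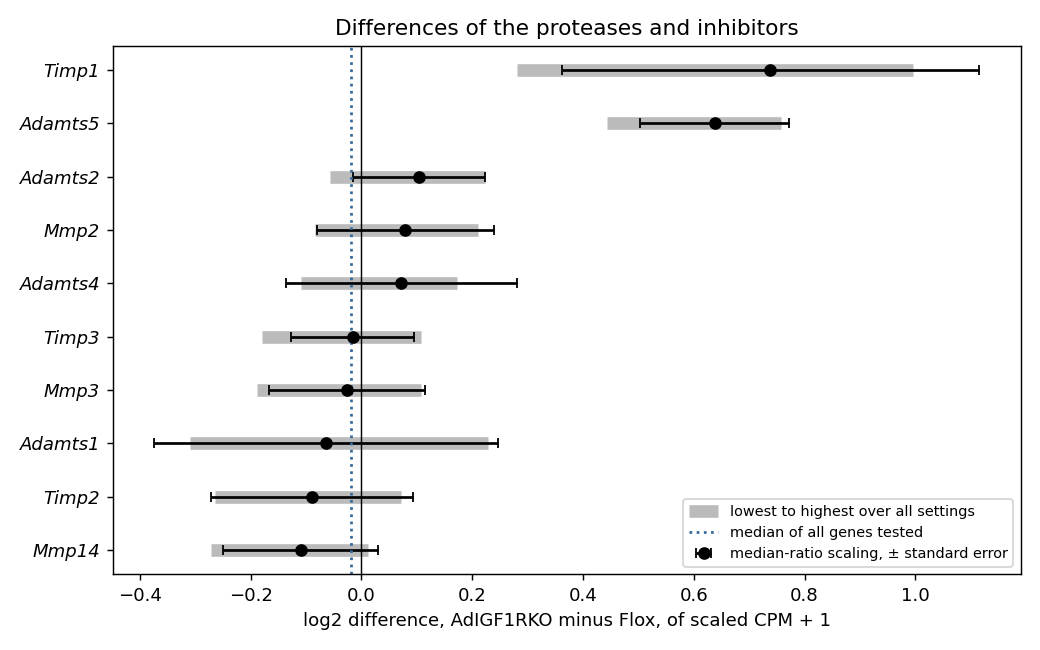
Log2 difference of AdIGF1RKO over Flox for each gene (points, with standard errors), with grey bars from the lowest to the highest value over the main and the alternative ways of processing and a dotted line at the median of all genes tested. Adamts5 stays between 0.44 and 0.76 and Timp1 between 0.28 and 1.00, while the grey bars of the other 8 genes cross 0.

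Levels of different genes were compared per kilobase, dividing by the merged exon length in GENCODE M21. Per kilobase, Timp2 came first with 107 ± 25.3 scaled CPM in AdIGF1RKO fat and 112 ± 10.3 in Flox fat (SD, n = 3 each). Mmp3 with 46.0 to 62.4 and Mmp2 with 48.5 to 70.7 over all libraries followed and overlapped each other. Timp3 (26.9 to 33.1) lay below these and above Mmp14 (12.2 to 16.1). Timp1 ranged from 6.32 to 24.0 and overlapped Mmp14 through AdIGF1RKO 2, while its Flox libraries lay below all values of Mmp14. Adamts1 (3.55 to 7.69), Adamts2 (3.74 to 4.77) and Adamts5 (2.77 to 5.72) overlapped, and Adamts4 (0.457 to 0.849) lay below all others. In Flox fat the ADAMTS genes filled the last 4 places and Adamts5 the place before the last. In AdIGF1RKO fat Adamts5 averaged 5.01 ± 0.652 per kilobase, against 4.96 ± 1.26 for Adamts1. Dividing by the longest coding transcript instead moved Timp3 to 46.4 to 57.1, overlapping Mmp3 and Mmp2, and left the last 6 places in Flox fat as they were. In AdIGF1RKO fat that length put the mean of Adamts5 (5.01) below those of Adamts1 (5.38) and Adamts2 (5.53). The annotation the authors counted on is not given in the sources used here, so these lengths are approximate.

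Across libraries most members were lowest in the same library of each genotype. Of the 10 genes, 8 were at their lowest Flox level in Flox 3, and 8 at their lowest AdIGF1RKO level in AdIGF1RKO 3, the libraries rich in muscle RNA. The summed progenitor and fibroblast markers were likewise lowest in Flox 3 (3305 scaled CPM) among Flox libraries and in AdIGF1RKO 3 (3520.2) among AdIGF1RKO libraries. This was not particular to them. Endothelial sums (644 in Flox 3, 761 in AdIGF1RKO 3) and general macrophage sums (1133 and 1237) were lowest there too, whereas mural, Schwann and tendon sums were not. The share of all tested genes lowest in these libraries was not counted. Among the 10 genes the exceptions were Adamts2 and Mmp2, lowest in Flox 1 among Flox libraries, and Adamts5 and Timp1, lowest in AdIGF1RKO 1 among AdIGF1RKO libraries. The part of muscle RNA in these levels was not tested. With both muscle-rich libraries left out, the log2 difference was 0.44 for Adamts5, against 0.64 with them, 0.90 for Timp1 and 0.03 for Mmp3, and the median of the 10 differences was 0.02.

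**Figure D4:**
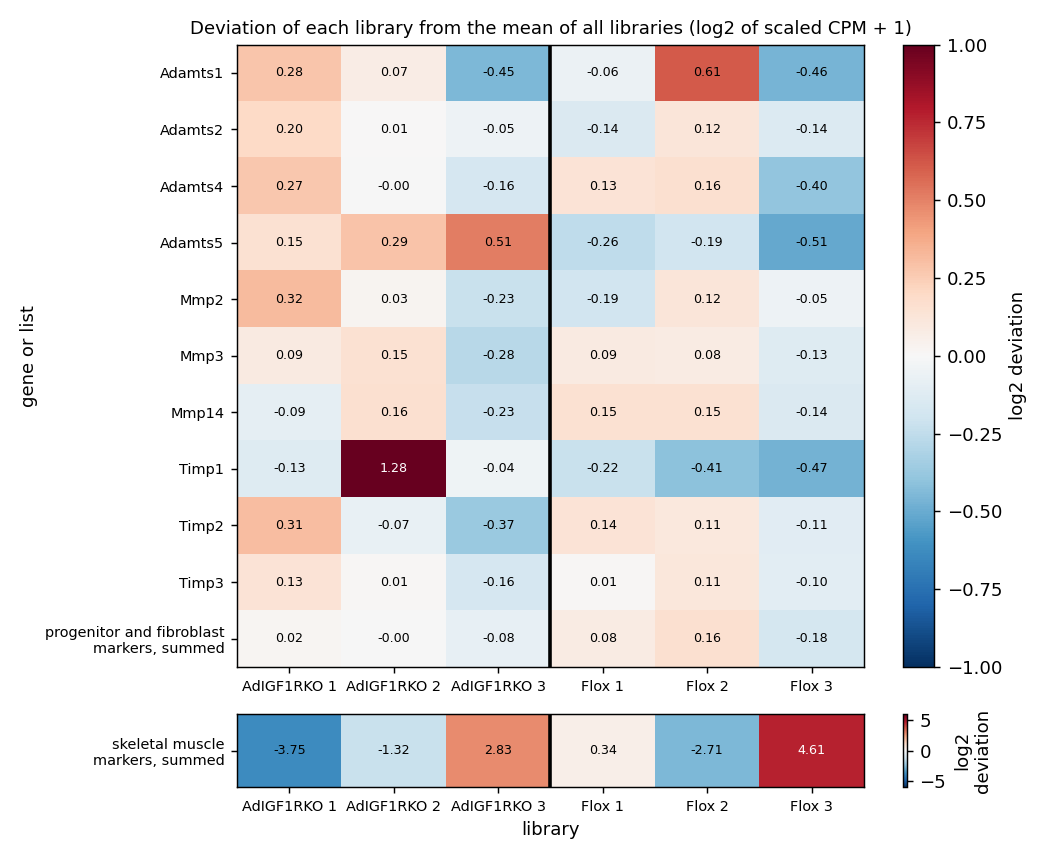
Log2 deviation of each gene, of the summed progenitor and fibroblast markers and of the summed skeletal muscle markers in each library from the mean of all 6 libraries, AdIGF1RKO left of Flox; colours end at 1 in the upper panel and at 6 in the lower. AdIGF1RKO 3 and Flox 3 have the most muscle RNA (2.83 and 4.61) and are below the mean for most genes, with Adamts5 in AdIGF1RKO 3 (0.51) as the clearest departure.

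The genes whose pattern over the 6 libraries was most like that of each member were named by Pearson's r of log2 values over 12924 tested genes (the members, predicted genes, clones and pseudogenes were passed over), as a description of the highest of many such values. Timp1 was most like Lgals3 (r = 0.998), which encodes galectin-3, a lectin abundant in macrophages, and Plin2 (r = 0.994), which encodes a lipid droplet coat protein. The log2 deviation of Timp1 from its mean was 1.28 in AdIGF1RKO 2 and -0.47 to -0.04 in the other libraries. That library therefore weighs heavily in both values of r. Adamts5 was most like Rtn4rl1 (r = 0.990) and Dcxr (r = 0.980). Adamts1 was most like Alg11 and Loxl3, Adamts2 like Chid1 and Ppm1m, and Adamts4 like Selenon and Antxr2, with r of 0.988 to 0.999. Mmp2 was most like Smarcb1 and Snx29, Mmp3 like Stat2 and Manba, and Mmp14 like Rps6 and Il10ra, with r of 0.975 to 0.996. Timp2 was most like Poc1b and Agap1, and Timp3 like Tctn3 and Ifi205, with r of 0.986 to 0.995.

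The surrounding genes of matrix turnover, 157 in 13 lists, were read from the same comparison. Of these, 132 were in the table and 115 were tested; 67 were above 0 on the log2 scale, where 44.8% of all tested genes were, 48 were below, and their median was 0.04. None passed limma at an adjusted p under 0.05 (adjusted p = 0.998 for each gene named below), 2 had an unadjusted p under 0.05, where 2.96% of all tested genes did, and 6 had groups that did not overlap, where 8.27% of all tested genes did. No gene named below passed edgeR or DESeq2 either.

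Of the other ADAMTS genes 13 of 15 were in the table and 8 were tested, 6 with a positive difference. Adamts7, whose product cuts cartilage oligomeric matrix protein, was the one gene of the list without overlap, with 2.87 ± 0.523 scaled CPM in AdIGF1RKO fat and 1.75 ± 0.139 in Flox fat (log2 difference 0.49, standard error 0.16). Adamts10, which binds fibrillin microfibrils, averaged 35.9 in AdIGF1RKO fat and 33.4 in Flox fat, Adamts12 17.8 in AdIGF1RKO fat and 20.4 in Flox fat, and Adamts15 9.08 in AdIGF1RKO fat and 7.18 in Flox fat. The ADAMTS-like genes, which lack a protease domain, had 2 positive and 4 negative differences, from -0.25 for Adamtsl1 and Adamtsl3 and -0.17 for Adamtsl4 to 0.48 for Adamtsl2.

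Of the other matrix metalloproteases 12 of 20 were in the table and 8 were tested, 5 with a positive difference. Mmp12, the macrophage elastase, had 5.12, 121 and 13.3 in AdIGF1RKO 1 to 3, against 2.53, 1.28 and 6.30 in Flox 1 to 3. It shared with Timp1 a peak in AdIGF1RKO 2, its groups overlapped, and its log2 difference was 2.50, but 1.26 without that library. Mmp9, a gelatinase, had 35.0 ± 7.82 in AdIGF1RKO fat and 43.3 ± 10.7 in Flox fat, Mmp11 6.25 ± 0.768 in AdIGF1RKO fat and 5.48 ± 1.14 in Flox fat, and Mmp27 8.14 ± 1.36 in AdIGF1RKO fat and 9.29 ± 1.26 in Flox fat (SD, n = 3 each).

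The ADAM proteases, which shed proteins from the cell surface, had 7 of 8 positive differences and a median of 0.07. Adam19 was without overlap at 12.0 ± 1.35 in AdIGF1RKO fat and 10.3 ± 0.586 in Flox fat, and Adam8, a protease of myeloid cells, was highest in AdIGF1RKO 2 at 24.6, against at most 8.87 elsewhere. Without AdIGF1RKO 2 the log2 difference of Adam8 was 0.35, against 0.90 with it, and that of Adam19 was 0.11, against 0.20 with it. Adam10 (0.11) and Adam33 (-0.17) overlapped. Among procollagen-processing genes Tll1 did not overlap, with 2.18 ± 0.349 in AdIGF1RKO fat and 1.62 ± 0.220 in Flox fat, while Bmp1 (-0.13), Pcolce (-0.11) and Pcolce2 (0.11) overlapped.

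Cathepsins and legumain, the lysosomal proteases, had 8 of 13 positive differences, with a median of 0.09. Ctsb, Ctsl and Ctsz had differences of 0.19, 0.22 and 0.15, and Ctsf was lower without overlap at 53.9 ± 4.78 in AdIGF1RKO fat and 59.7 ± 3.72 in Flox fat. Of the plasminogen system 2 of 6 genes were positive. Plau, the urokinase gene, had 52.8 ± 12.9 in AdIGF1RKO fat and 65.7 ± 4.02 in Flox fat, its receptor gene Plaur had 7.97 ± 3.37 in AdIGF1RKO fat and 5.57 ± 1.21 in Flox fat, and the inhibitor gene Serpine2 had a difference of -0.11. Without AdIGF1RKO 2 the difference of Plaur was 0.11, against 0.40 with it, and those of Ctsb, Ctsl and Ctsz were 0.08, 0.04 and 0.05. Of the activating convertases Furin was 33.7 ± 2.02 in AdIGF1RKO fat and 31.4 ± 0.647 in Flox fat, and Pcsk5 (-0.29), Pcsk7 (-0.06) and Bsg (-0.20), the gene of the protease inducer basigin, were negative.

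Other inhibitors were split, with 4 of 8 positive. Rarres1 (0.44), Tfpi2 (0.29) and the cystatin gene Cstb (0.20) were positive and the cystatin gene Cst3 (-0.14) negative. Timp4, the remaining TIMP gene, named here after its values were seen, had 104, 147 and 161 in AdIGF1RKO 1 to 3, against 92.1, 158 and 98.5 in Flox 1 to 3, with overlapping groups. Of the receptors that bind or clear these enzymes 5 of 6 were positive, among them the hyaluronan receptor Cd44 with 19.9 ± 8.16 in AdIGF1RKO fat and 12.7 ± 2.56 in Flox fat. The syndecan genes had differences of 0.23 for Sdc1, 0.20 for Sdc3 and -0.20 for Sdc4. Without AdIGF1RKO 2 the difference of Cd44 was 0.26, against 0.56 with it, that of Sdc1 0.10, that of Sdc3 0.03 and that of Tfpi2 0.11, and that of Cstb turned to -0.022.

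Of the proteoglycan and hyaluronan genes that include the substrates of ADAMTS5, 5 of 10 were positive, with a median of -0.02. Ncan, of a proteoglycan best known from brain, was without overlap at 1.72 ± 0.602 in AdIGF1RKO fat and 0.790 ± 0.119 in Flox fat, close to the lower limit of testing. Bgn (0.26), Hapln3 (0.23) and Dcn (-0.16) overlapped. Of collagens and glycoproteins 13 of 19 were positive, with a median of 0.14. The collagen VI genes Col6a1, Col6a2 and Col6a3 had differences of 0.20, 0.22 and 0.26, and Col6a3 was without overlap at 223 ± 26.3 in AdIGF1RKO fat and 185 ± 18.8 in Flox fat. Tnc, of tenascin-C, had 4.15 ± 1.68 in AdIGF1RKO fat and 2.54 ± 0.541 in Flox fat. Inducible regulators of protease genes had 7 of 14 positive differences with a median of 0.00: Atf3 (0.63), Tgfb1 (0.30) and Jund (0.17) were positive and Fosb (-0.71) negative, all with overlap. Atf3 was highest in AdIGF1RKO 2, and without that library its difference was 0.18, while that of Tnc was 0.27 and that of Hapln3 0.12.

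**Figure D5:**
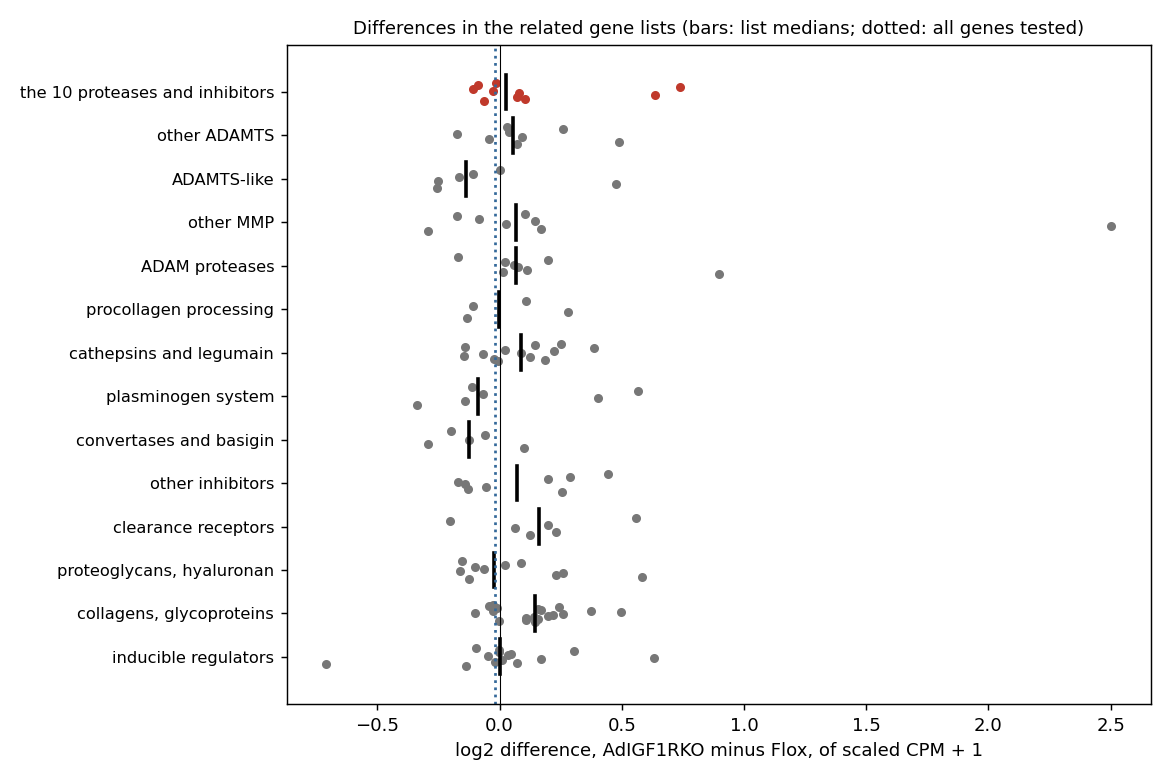
Log2 difference of AdIGF1RKO over Flox for the 10 proteases and inhibitors (red) and for the tested genes of 13 related lists (grey); bars are list medians and the dotted line the median of all genes tested. List medians lie between -0.14 for ADAMTS-like genes and 0.16 for clearance receptors, and Mmp12 is the point at 2.50.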

How the data were processed

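Per the labels' protocols, polyadenylated RNA of 6 inguinal fat samples was sequenced from stranded libraries. Build GRCm39 is named in the submitters' processing notes, and no aligner, counter or annotation is. The authors deposited 1 table whose name says FPKM, but each value is a signal: a whole number of reads times 1 factor per library, not divided by gene length (100% of values whole within a tolerance of 0.5). Reads were recovered with that factor and divided by median-ratio size factors. The table lists no 0 and at least 1 read per gene. Genes with a mean of at least 1 scaled CPM were tested (12993; 1868 left out) with limma 3.58.1 (R 4.3.3, intensity trend) on log2(value + 1), and p-values were adjusted by Benjamini-Hochberg over all of them; this scale understates changes of low genes. edgeR 4.0.16 and DESeq2 1.42.0 on the recovered reads were alternatives, as were other scalings, filters, a pseudocount of 0.5, a muscle covariate, a replicate block and leaving out libraries.

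The members, lists, tests and alternatives were chosen with earlier results of these data known. Named list genes are the 4 with the smallest unadjusted p per list, and the 2 most alike genes per member. Some results that this rule names are not reported here. The labels give both groups the numbers 1 to 3 without saying what they share. The main fit therefore did not pair the libraries, and the replicate block was an alternative only. Deviations from the group means correlated between same-numbered libraries (r = 0.347, 0.349 and 0.834), where the highest value joins the muscle-rich libraries. However, AdIGF1RKO 1 correlated more with Flox 2 (r = 0.700), and AdIGF1RKO 2 nearly as much with Flox 1 (r = 0.326). With the replicate block 582 genes had an unadjusted p under 0.05, against 385 without it, and 0 passed adjustment. The labels do not say whether each library came from a separate mouse, and p-values measure the spread between these samples only. With 3 samples against 3, an exact permutation test could not go below 0.1, and none was used.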

Additional observations from a re-analysis of the deposited data

How the results depend on the processing

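The 17 alternatives called 0 genes, except DESeq2 (23) and leaving out Flox 1 (1); over the libraries left out in turn the count ranged from 0 to 1. The replicate block changed no call (0 genes). The number of members with a positive difference was 5, but 2 with the values as deposited, 10 with libraries scaled to equal sums, and 3 (without AdIGF1RKO 1) to 9 (without AdIGF1RKO 3) over the libraries left out, with 8 without Flox 2; the cause was not tested. The number without overlap was 2, but 4 with the values as deposited, 3 without both muscle-rich libraries, and 2 to 3 over the single libraries left out, where leaving libraries out cannot lower it. The share of all tested genes without overlap was counted for the main scaling only (8.27%). Groups of fewer libraries separate more easily, and nothing is read from the counts under the alternatives. The median of the members was -0.13 with the values as deposited (all genes -0.17), 0.13 with equal sums (all genes 0.09), and -0.08 to 0.17 over the libraries left out. Adamts5 and Timp1 were positive under all 17.

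Of 874 values of the 52 list genes that the naming rule picks, 855 kept their direction and none crossed the threshold; 19 values, of 13 genes, turned sign. With the values as deposited Adamts10 was -0.066, Adam10 -0.047, Pcolce2 -0.053, Ctsz -0.018 and Furin -0.059. With equal sums Pcolce was 0.012, Serpine2 0.011 and Pcsk7 0.057. Without both muscle-rich libraries Adamts10 was -0.077, Adamtsl2 -0.19 and Pcolce2 -0.043, and Pcolce2 was -0.073 with the muscle covariate. Leaving out single libraries gave -0.0033 to 0.40 for Adamts15, -0.28 to 0.011 for Adam33, -0.22 to 0.36 for Pcolce2, -0.12 to 0.029 for Pcsk7, -0.33 to 0.026 for Bsg and -0.022 to 0.31 for Cstb. The members had at least 106 reads in each library, and each group has 3 libraries.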
